A study of Mus musculus with 39 samples.

Results

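Trpv4 and 5 other cation channels that respond to mechanical or related stimuli, Trpv2, Trpm4, Trpm7, Trpc1 and Piezo1, were followed in 39 RNA sequencing libraries of sorted mouse pancreatic tumour cells. The 6 genes were taken by symbol from the 39017 genes of the deposited table, and all 6 were present. The set was chosen by measured values, the difference of Trpv4 in particular between T cell high and T cell low tumours in these libraries, so values in that contrast are given as a description without a test. Trpv4 reached a normalised read count (CPM, counts scaled to the depth of the library) of 101 in 1 T cell high clone and was at most 15.7 CPM in every library of a T cell low clone. Some T cell high libraries lay within the T cell low range.

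Transient receptor potential (TRP) channels and Piezo channels are membrane pores that let cations pass when they open. Piezo1 is opened directly by membrane tension, whereas Trpv4 opens upon cell swelling, warmth and lipid metabolites such as those of arachidonic acid. Calcium that enters through either channel acts on calmodulin, calcineurin and NFAT factors. In the pancreas, Piezo1 and Trpv4 are known for the response of acinar and stellate cells to pressure. Trpv2 is a relative of Trpv4 that is well known in macrophages. Trpm4 is opened by intracellular calcium and carries sodium and potassium but hardly any calcium. Trpm7 joins a channel permeable to magnesium, calcium and zinc to a protein kinase, and Trpc1 takes part in receptor-operated and store-operated calcium entry.

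The libraries came from tumours grown for 3 weeks under the skin of untreated C57BL/6 mice after implantation of tumour cell clones. The T cell low class held 18 libraries of 9 clones, the T cell high class 14 libraries of 6 clones, the intermediate class 4 libraries of 2 clones, and 3 libraries of 3 clones carried no class. Clones are named as in the titles, in which a parent line number is followed by c and a clone number. The labels give neither the genotype of the clones nor whether libraries of a clone came from separate mice. Each clone is a single lineage, and the hosts were not described as lacking any immune cells. The clone was therefore the replicate, and p-values measure the spread between these clones or libraries, which may be partly technical.

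Trpv4 spans chr5:114622152-114658421 on the minus strand of GRCm38, and Trpv2 spans chr11:62574486-62600515 on the plus strand. Trpm4 lies at chr7:45302632-45333780, Trpm7 at chr2:126791565-126876230, Trpc1 at chr9:95705082-95750375 and Piezo1 at chr8:122481698-122551329, all on the minus strand. All 6 are annotated as protein coding. Trpm4 overlaps the antisense pseudogene Rpl14-ps1 and Trpm7 the antisense pseudogene Gm14212. Piezo1 overlaps 3 genes, of which Ctu2 and Gm20388 are antisense. The strand setting of the counting is not given in the sources used here, so reads of these neighbours cannot be told apart from those of Piezo1, Trpm4 and Trpm7.

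The 250 bases before the RefSeq transcription start (GRCm38.p6) are shown for 4 members, because Trpv4 and Trpm7 ran in opposite order across clones, Trpv2 followed macrophage transcripts, and Piezo1 was the other force-gated member. A promoter entry was found for 5 of the 6 members. Each is written 5′ to 3′ on the strand of the gene, and capitals mark the GC box GGGCGG or its complement CCGCCC. The windows are chr5:114658422-114658671 for Trpv4, chr2:126876262-126876511 for Trpm7, chr11:62574236-62574485 for the first of the Trpv2 starts and chr8:122551330-122551579 for Piezo1.
Trpv4: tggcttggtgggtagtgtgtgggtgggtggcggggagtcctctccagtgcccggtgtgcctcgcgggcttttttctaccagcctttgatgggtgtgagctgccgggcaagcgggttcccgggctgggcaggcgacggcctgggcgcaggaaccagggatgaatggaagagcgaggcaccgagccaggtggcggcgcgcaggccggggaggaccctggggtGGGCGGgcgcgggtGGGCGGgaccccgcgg
Trpm7: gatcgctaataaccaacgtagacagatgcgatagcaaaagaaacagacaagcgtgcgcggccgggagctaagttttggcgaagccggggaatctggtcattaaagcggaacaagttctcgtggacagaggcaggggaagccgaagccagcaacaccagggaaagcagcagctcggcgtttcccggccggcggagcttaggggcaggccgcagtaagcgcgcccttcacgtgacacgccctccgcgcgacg
Trpv2: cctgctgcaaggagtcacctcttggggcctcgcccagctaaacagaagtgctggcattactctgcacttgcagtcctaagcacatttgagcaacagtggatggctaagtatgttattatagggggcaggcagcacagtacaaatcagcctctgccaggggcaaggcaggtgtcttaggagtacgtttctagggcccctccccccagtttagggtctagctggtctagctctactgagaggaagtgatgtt
Piezo1: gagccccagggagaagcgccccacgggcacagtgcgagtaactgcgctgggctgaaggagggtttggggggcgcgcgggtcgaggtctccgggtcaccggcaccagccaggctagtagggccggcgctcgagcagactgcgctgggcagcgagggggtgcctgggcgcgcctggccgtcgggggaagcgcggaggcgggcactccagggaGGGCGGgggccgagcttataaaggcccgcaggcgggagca

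The Trpv4 window held 2 GC boxes, 16 and 30 bases before the start, and the Piezo1 window 1, 40 bases before it. On both strands, GGGCGG was found in 32.7% of 32851 mouse promoter windows of this length. Piezo1 also held TATAAA, 24 bases before the start, which 12.4% of windows contained, and Trpm7 held CACGTG, 25 bases before the start, which 6.02% contained. The motif GGAATG, present in 12.6% of windows, was in none of the 4 windows shown. The motifs did not overlap one another in these windows. CpG dinucleotides numbered 22 for Trpv4, 26 for Trpm7 and 26 for Piezo1 but only 2 for Trpv2, against a median of 6 over all windows. GC content was 72% for Trpv4, 60.4% for Trpm7, 53.2% for Trpv2 and 74% for Piezo1, against a median of 52.4%. These matches describe letters in the windows and were not tested as binding sites.

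The libraries fell into 2 kinds by 4 genes of heart muscle, which sorted tumour cells should lack. The summed level of Mb, Myl2, Myh7 and Myh6 was at most 0.230 CPM in 20 libraries, called heart-free, and at least 162 CPM in the other 19, called heart-bearing. The dividing level was 10 CPM. Of the heart-bearing libraries 18 have a title ending in no1, against 1 of the heart-free libraries, so this number and kind can hardly be told apart. The labels do not say what the number means. The heart-bearing libraries also held 512 to 14684 CPM of 6 liver genes. The 6 epithelial markers Krt7, Krt8, Krt18, Krt19, Epcam and Cdh1 summed to 3514 to 13562 CPM over all libraries, and each averaged at least 1 CPM in both kinds of library. The sum of counts in a library lay between 7638130 and 103794674 (median 34565903), which put 35 to 3586 reads on Trpv4, 12 to 674 on Trpv2, 29 to 849 on Trpc1, 148 to 3055 on Trpm4, 1217 to 12276 on Trpm7 and 1042 to 17704 on Piezo1. In such bulk samples, fewer cells of a type and less RNA per cell cannot be told apart.

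Per kilobase of exon, Piezo1 had the highest level of the 6 genes, with a median of 17.7 CPM per kilobase over the heart-free libraries. Trpm7 followed with 5.39 to 14.3 CPM per kilobase, Trpm4 with a median of 2.92, Trpv4 at 2.72, Trpc1 at 0.550 and Trpv2 at 0.299. The range of Trpm4, 1.54 to 8.14 CPM per kilobase, lay within that of Trpv4, 0.747 to 24.7, so the order of this pair does not exceed the spread between libraries. Trpv4 spread 33.0-fold between the lowest and the highest heart-free library and Trpv2 39.8-fold. The other 4 channels spread far less, Piezo1 3.95-fold and Trpm7 2.65-fold on the CPM scale.

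Trpv4 had its highest levels in 5 clones. Among heart-free libraries of T cell high clones it stood at 101 CPM in yfp_7160c2, 77.1 in yfp_6620c1, 62.3 in yfp_6555c3, 49.5 in yfp_6499c4 and 14.8 in yfp_6556c4. The 3 heart-free libraries of yfp_2838c3 held 4.44, 7.71 and 20.8 CPM. Heart-free libraries of T cell low clones ranged from 3.04 CPM in yfp_6421c2 to 15.7 in yfp_6556c3, with a median of 7.51. Of the 2 intermediate clones, yfp_7160c5 stood at 94.1 CPM and yfp_6422c5 at 4.29, and yfp_7062c3, without a class, at 10.4. No heart-free library lay between 20.8 and 49.5 CPM. The 4 highest T cell high clones and yfp_7160c5 were above that gap, and every other clone was below it. The 3 libraries of yfp_2838c3, with an SD of 8.66 CPM, spanned every T cell low clone except yfp_6421c2, so the order of the clones below the gap does not exceed the spread within a clone. Above the gap each clone had a single heart-free library, so their order has no replicate check.

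**Figure D1:**
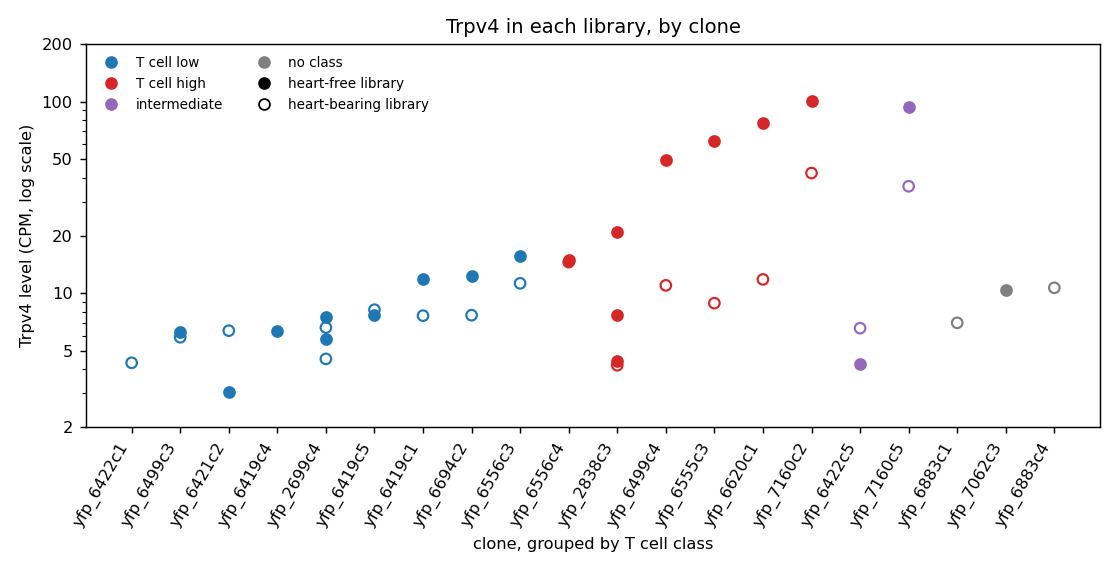
Trpv4 level (CPM, log scale) in each of the 39 libraries, by clone and T cell class; filled points are heart-free and open points heart-bearing libraries. Heart-free points of 5 clones lie at 49.5 CPM or more, while the highest T cell low library is at 15.7 CPM.

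Over clones, the heart-free level of Trpv4 was 52.7 ± 34.9 CPM (SD, n = 6) in T cell high and 8.73 ± 4.14 CPM (SD, n = 8) in T cell low clones. In these libraries 4 of 6 T cell high clones exceeded every T cell low clone. The share of all genes that separate as far was not computed, here or for the counts below. By another measure, edgeR called 0% of 15635 genes in that contrast (2095 at an unadjusted p under 0.05, and 380 called by DESeq2). These counts are background and no test of Trpv4. The fitted log2 difference of Trpv4 was 2.60 ± 0.47 (SE), and it stayed between 2.30 and 2.80 when each clone was left out in turn. Over all libraries the levels were 32.7 ± 20.1 CPM (SD, n = 6) and 7.58 ± 2.80 CPM (SD, n = 9), a log2 difference of 2.10 ± 0.35. There, 5 of 6 T cell high clones were above every T cell low clone, the exception being yfp_2838c3 at 8.96 CPM, and edgeR called 0% of 18551 genes (2176 at an unadjusted p under 0.05, with 154 called by DESeq2 and 0 by limma-voom). Macrophage markers were higher as well in the heart-free libraries of T cell high clones, with 6 of 6 measured genes positive, a median log2 difference of 1.64 and none called. Their summed level was 84.9 to 2695 CPM in those libraries and 51.0 to 1406 CPM in T cell low ones. Of the 5 clones above the Trpv4 gap, yfp_7160c2 had 103 CPM of these markers, yfp_6620c1 1353, yfp_6555c3 1896, yfp_6499c4 2695 and yfp_7160c5 3275. Over the 17 clones with a heart-free library, Trpv4 and this sum gave r = 0.528 (permutation test, p = 0.0304, adjusted p = 0.122 over 24 relations), which did not pass, and rho = 0.414 (adjusted p = 0.394). Other marker lists were also higher in the heart-free libraries of T cell high clones, with none called. Pan-leukocyte genes were positive in 5 of 5 (median 1.83), endothelial in 6 of 6 (1.37), fibroblast in 5 of 6 (1.04) and epithelial in 6 of 6 (0.35). Their part in the Trpv4 difference was not tested.

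In heart-bearing libraries the Trpv4 contrast was narrower. The T cell high clones held 42.4 CPM in yfp_7160c2, 14.5 in yfp_6556c4, 11.8 in yfp_6620c1, 10.98 in yfp_6499c4, 8.87 in yfp_6555c3 and 4.20 in yfp_2838c3. The T cell low libraries ranged from 4.33 to 11.3 CPM with a median of 6.61. Only 3 of 6 T cell high clones exceeded every T cell low clone and 1 was below all of them. The share of all genes with such counts was not computed. By adjusted p, edgeR called 0% of 17313 genes (1851 at an unadjusted p under 0.05, with no other tool run). The log2 difference was 1.13 ± 0.38 (SE). Over the 19 heart-bearing libraries the sum of heart genes ran from 162 to 4556 CPM. Some heart-bearing libraries of different clones and classes had nearly equal marker sums. Those of yfp_6499c4, yfp_6555c3, yfp_6556c4, yfp_6620c1, yfp_6419c5 and 1 of yfp_2699c4 held 4235 to 4556 CPM of heart genes. The same libraries held 13133 to 14684 CPM of liver and 6482 to 6877 CPM of epithelial genes. How far the levels of the members there belong to each clone was not tested.

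Sister clones of a parent line did not always differ as their classes did. Heart-free Trpv4 was 49.5 CPM in the T cell high clone yfp_6499c4 and 6.26 CPM in its T cell low sister yfp_6499c3. It was 14.8 CPM in the T cell high clone yfp_6556c4 and 15.7 CPM in its T cell low sister yfp_6556c3. The T cell high clone yfp_7160c2 and the intermediate clone yfp_7160c5 were close, at 101 and 94.1 CPM heart-free and at 42.4 and 36.1 CPM heart-bearing. With the parent line as a block, the 2 lines that hold both a high and a low clone gave a Trpv4 log2 difference of 1.27 ± 0.63 (SE) over libraries. Its 95% interval ran from -0.20 to 2.75. That fit took 8 libraries of 2 T cell high and 2 T cell low clones as replicates. The interval therefore measures the spread between libraries and not between clones. There, edgeR called 0% of 16879 genes (1516 at an unadjusted p under 0.05, and 350 called by DESeq2).

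The intermediate clones did not enter the contrast that chose the genes, though the comparison with T cell low clones shares those clones with it. Trpv4 was 35.2 ± 42.6 CPM (SD, n = 2) in them, 2.23 ± 0.59 (SE) above the T cell low clones on the log2 scale. This did not pass (edgeR, adjusted p = 0.369), as for all 6 members, beside 0.00499% of 20028 genes called. The value rested on yfp_7160c5: without it the log2 difference was -0.51, and without yfp_6422c5 it was 3.11. Either leaves 1 intermediate clone, which is then assumed to vary like the clones of the other groups, so no p is given. The clone yfp_7160c5 is also a sister of yfp_7160c2, the T cell high clone with the most Trpv4, so it is not separate from the contrast that chose the genes. Against the T cell high clones the difference of Trpv4 was 0.15 ± 0.70 (edgeR, adjusted p = 1.0), with a 95% interval from -1.32 to 1.62. None of the 6 members was called there, beside 0% of 20028 genes. At an unadjusted p under 0.05, 414 genes differed, and DESeq2 called 0. The other 5 members lay between -0.25 (Trpc1) and 0.67 (Trpm4) on the log2 scale against T cell low clones, with adjusted p from 0.997 to 1.0.

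Trpv2 was the member with the lowest median per kilobase in heart-free libraries. In heart-bearing libraries Trpc1 was lower, with a median of 0.765 CPM per kilobase against 1.79 for Trpv2. The 8 heart-free libraries of T cell high clones ranged from 0.464 to 12.7 CPM with a median of 2.57, and the T cell low ones from 0.593 to 5.07 with a median of 1.31. Libraries fell into a low and a high set in both classes. It was 12.7 CPM in yfp_6555c3, 7.27 in 1 library of yfp_2838c3, 6.17 in yfp_6499c4, 4.22 in yfp_6620c1 and 5.07 in the T cell low clone yfp_6499c3, and at most 2.22 CPM in the other T cell high and T cell low heart-free libraries. The heart-free log2 difference between classes was 1.41 ± 0.64 (SE), and 0.75 without yfp_6555c3. In heart-bearing libraries, where Trpv2 stood at 3.00 to 12.2 CPM, it was 0.26 ± 0.30.

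Trpv2 followed the macrophage markers C1qa, C1qb, C1qc, Csf1r, Cd68 and Lyz2. Over the 17 clones with a heart-free library, log2 Trpv2 and the log2 sum of these markers gave Pearson's r = 0.932 and Spearman's rho = 0.946. The two-sided permutation p was 1e-05 for each, the smallest that 100000 permutations can give, and 0.00024 after Benjamini-Hochberg adjustment over 24 relations. Without yfp_6422c5 and yfp_7160c5, the clones farthest from the median, r was 0.903. The marker sum ran from 39.6 CPM in yfp_6422c5, where Trpv2 was 0.320 CPM, to 3275 CPM in yfp_7160c5, where Trpv2 was 9.12 CPM. The part of macrophage RNA in the Trpv2 level was not tested further. No relation with endothelial, fibroblast or epithelial marker sums passed for any member, with adjusted p of 0.0954 or more.

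**Figure D2:**
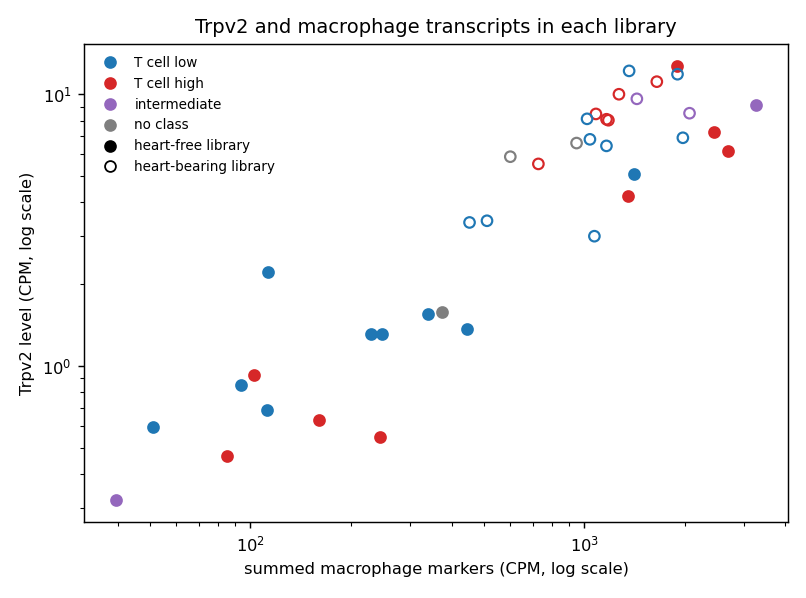
Trpv2 level against the summed level of 6 macrophage markers (both CPM, log scales) in each library; filled points are heart-free and open points heart-bearing, coloured by class. Libraries below 500 CPM of markers hold at most 3.37 CPM of Trpv2, in every class.

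Trpm4, the calcium-activated sodium and potassium channel, was similar in both classes. Heart-free libraries held 23.3 to 79.8 CPM in T cell high clones with a median of 32.1, and 16.7 to 52.4 CPM in T cell low clones with a median of 27.7. The classes overlapped except for yfp_7160c2 at 79.8 CPM. Its intermediate sister yfp_7160c5 was highest of all libraries at 88.1 CPM, and the pair also led the heart-bearing libraries at 48.1 and 45.3 CPM. The heart-free log2 difference between classes was 0.27 ± 0.29 (SE), and -0.02 without yfp_7160c2. The next levels were 52.4 CPM in yfp_6419c1 and 48.2 in yfp_6419c5, both T cell low, and 42.9 in yfp_6620c1 and 42.5 in yfp_6556c4, both T cell high.

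Trpm7, the channel with a kinase domain, ran opposite to Trpv4 in heart-free libraries. Heart-free libraries of T cell low clones held 109.5 to 162 CPM with a median of 128, and those of T cell high clones 61.0 to 134 CPM with a median of 102. The lowest were yfp_6555c3 at 61.0, yfp_6499c4 at 65.7, yfp_7160c2 at 85.8 and yfp_6620c1 at 98.5 CPM, which are the T cell high clones with the most Trpv4. The intermediate yfp_7160c5 stood at 93.5 CPM and yfp_6422c5 at 149 CPM. By clone, 5 of 6 T cell high clones were below every T cell low clone in heart-free libraries, and the exception was yfp_2838c3 at 122 CPM. Over all libraries this held for 2 of 6, and in heart-bearing libraries for 0 of 6, with 1 above every T cell low clone. In each contrast edgeR called 0% of all genes, and the share of genes separated as far was not computed. The heart-free log2 difference was -0.51 ± 0.16 (SE), against -0.28 ± 0.11 over all libraries and -0.00 ± 0.13 in heart-bearing libraries. Over the 17 heart-free clones the log2 levels of Trpv4 and Trpm7 gave r = -0.805 and rho = -0.836, a description in which the clones share their scaling to library totals. Among the 12 clones below the Trpv4 gap alone, r was -0.785 and rho -0.664. The Trpv4 order of those clones did not exceed the spread within yfp_2838c3, so these values are only a description. Trpm7 was inversely related to the macrophage sum, with r = -0.657 (permutation test, adjusted p = 0.0436) and rho = -0.654 (adjusted p = 0.0647), and r = -0.613 without the 2 clones farthest from the median.

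**Figure D3:**
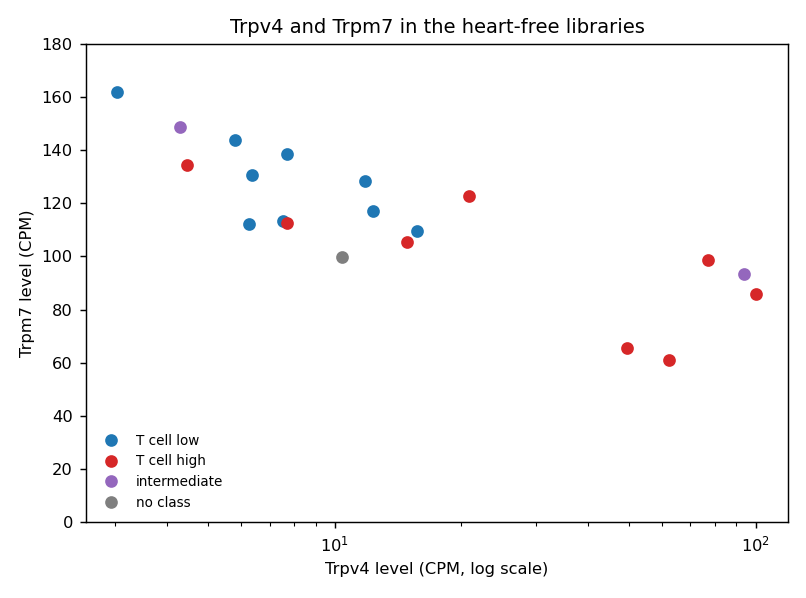
Trpm7 level (CPM) against Trpv4 level (CPM, log scale) in the 20 heart-free libraries, coloured by class. The 5 libraries with Trpv4 at 49.5 CPM or more have Trpm7 at 98.5 CPM or less.

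Trpc1, a subunit of receptor-operated and store-operated channels, showed no separation of the classes. Heart-free libraries held 2.24 to 6.35 CPM in T cell high and 2.09 to 7.32 CPM in T cell low clones, with medians of 4.64 and 4.36. The log2 difference was -0.20 ± 0.29 (SE) heart-free and -0.02 ± 0.18 heart-bearing. The lowest values were in yfp_2699c4, at 2.09 and 2.74 CPM in its 2 heart-free libraries, and in yfp_6555c3 at 2.24 CPM. These clones belong to different classes.

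Piezo1, the tension-gated channel, had a lower median in T cell high clones, and the classes overlapped. Heart-free libraries of T cell low clones held 143 to 329.6 CPM with a median of 178, and those of T cell high clones 86.7 to 264 CPM with a median of 147. The lowest levels were in yfp_6499c4 at 86.7, 1 library of yfp_2838c3 at 103, yfp_6555c3 at 114 and the intermediate yfp_7160c5 at 127 CPM. The highest were in yfp_6422c5 at 343 and yfp_6694c2 at 329.6 CPM. In heart-free libraries 2 of 6 T cell high clones were below every T cell low clone, over all libraries 4 of 6, and in heart-bearing libraries none. The share of all genes with such counts was not computed, and edgeR called 0% of genes in each contrast. The log2 difference was -0.39 ± 0.25 (SE) heart-free, -0.31 ± 0.18 over all libraries and -0.13 ± 0.14 heart-bearing. Between Piezo1 and Trpv4 over heart-free clones r was -0.537 and rho -0.451. Among the 12 clones below the Trpv4 gap, whose Trpv4 order did not exceed the spread within a clone, r was 0.042. Between Piezo1 and the macrophage sum r was -0.627 (permutation test, adjusted p = 0.0555), which did not pass.

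**Figure D4:**
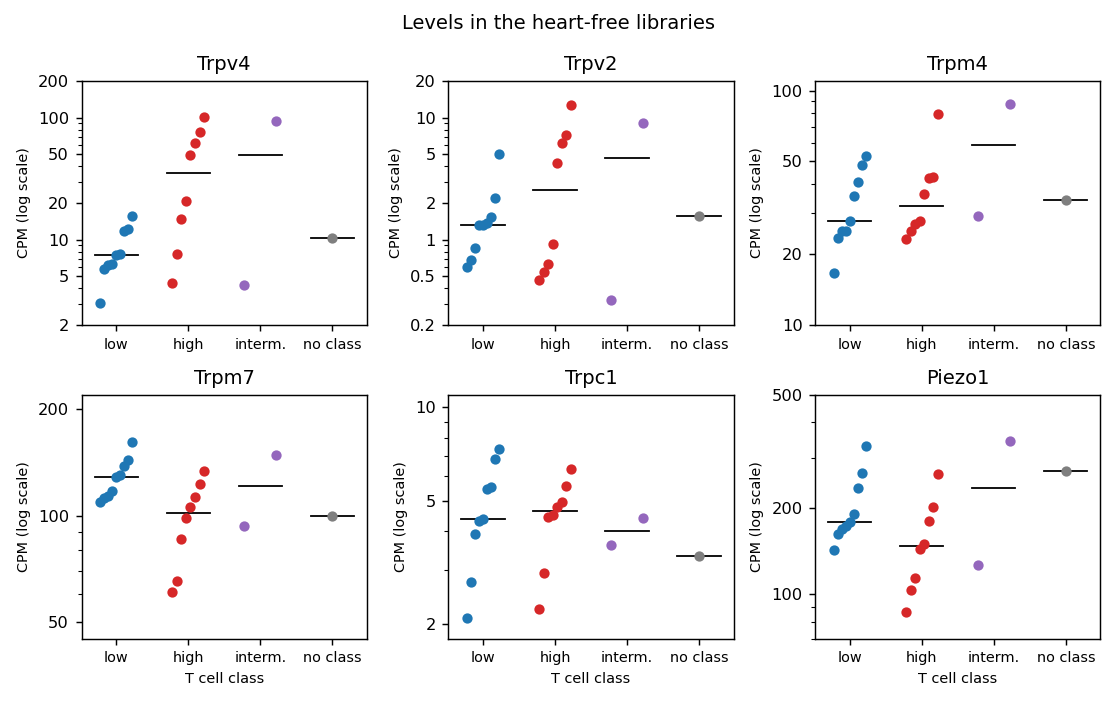
Levels of the 6 channels (CPM, log scale) in heart-free libraries by T cell class; each point is a library and each line the median of the class. Trpv4 medians are 7.51 CPM in T cell low and 35.1 in T cell high libraries, and Trpm7 medians 128 and 102 CPM.

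Libraries of the same clone were next compared by kind. The set was chosen by the difference between classes and not between kinds, but the same libraries entered that choice. The test of Trpv4 is therefore not free of it. Its median log2 difference between kinds was -1.78 in T cell high and -0.25 in T cell low clones. In the 15 clones with both kinds, Trpv2 and Trpc1 were higher and Trpv4 and Trpm4 lower in heart-bearing libraries, so 4 of 6 members were called. Of 19533 genes tested, 59.2% were called, 31.8% as higher and 27.3% as lower, so 2 members higher and 2 lower is near the background. Heart-bearing libraries carried higher levels of other cell types: all 6 endothelial, 6 fibroblast, 5 pan-leukocyte and 6 T cell markers and 5 of 6 macrophage markers rose. Of the 6 epithelial markers, 3 fell and none rose, with a median log2 difference of -0.41. The part of these cells in the members' differences was not tested. Macrophage markers summed to 453 to 2065 CPM in heart-bearing libraries.

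Trpv2 was higher in heart-bearing libraries of 14 of 15 clones, by 2.04 ± 0.47 (SE) on the log2 scale (edgeR, adjusted p = 0.000804). The exception was yfp_6555c3, with 12.7 CPM heart-free and 8.46 heart-bearing. Trpc1 was also higher in 14 of 15, by 0.52 ± 0.16 (edgeR, adjusted p = 0.00677). Trpv4 was lower in 12 of 15 clones, with a log2 difference of -0.78 ± 0.28 (edgeR, adjusted p = 0.0212). It dropped from 77.1 to 11.8 CPM in yfp_6620c1, from 62.3 to 8.87 in yfp_6555c3 and from 49.5 to 10.98 in yfp_6499c4. Trpm4 was lower in 12 of 15, with -0.41 ± 0.11 (edgeR, adjusted p = 0.00257). Trpm7 at 0.10 ± 0.09 (adjusted p = 0.331) and Piezo1 at -0.21 ± 0.12 (adjusted p = 0.133) did not pass.

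Within classes the fitted differences are a description without a test, because the set was chosen by the difference between the classes. In T cell high clones alone, Trpv4 was lower in 6 of 6 (log2 -1.64). The log2 difference there was 0.66 for Trpc1, 1.51 for Trpv2, -0.39 for Trpm4 and 0.44 for Trpm7. In T cell low clones alone, it was 2.37 for Trpv2, -0.31 for Piezo1, -0.20 for Trpv4, -0.40 for Trpm4 and 0.44 for Trpc1. Piezo1, which did not pass over the 15 clones of any class, did so without yfp_6499c4, at -0.27 (edgeR, adjusted p = 0.0427).

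The difference between the classes in this effect rests on the same values as the contrast that chose the genes, so it is given for the members as a description without a test. For Trpv4 it was -1.50 ± 0.47 (SE) on the log2 scale, a larger fitted drop in T cell high clones, and for Trpm7 it was 0.51 ± 0.19. The other 4 members lay between -0.93 ± 0.93 (Trpv2) and 0.30 ± 0.23 (Piezo1). Of 19394 genes, edgeR called 0%, with 1926 at an unadjusted p under 0.05, and DESeq2 called 209. Marker lists moved in the same difference with none called. Heart genes were positive in 4 of 4 (median 1.19), liver in 5 of 6 (2.11), fibroblast in 6 of 6 (1.03) and endothelial in 6 of 6 (0.73). Macrophage genes were positive in 0 of 6 (median -1.71), pan-leukocyte in 0 of 5 (-1.61), T cell in 0 of 6 (-1.21) and epithelial in 0 of 6 (-0.41). Their part in the members' values was not tested.

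**Figure D5:**
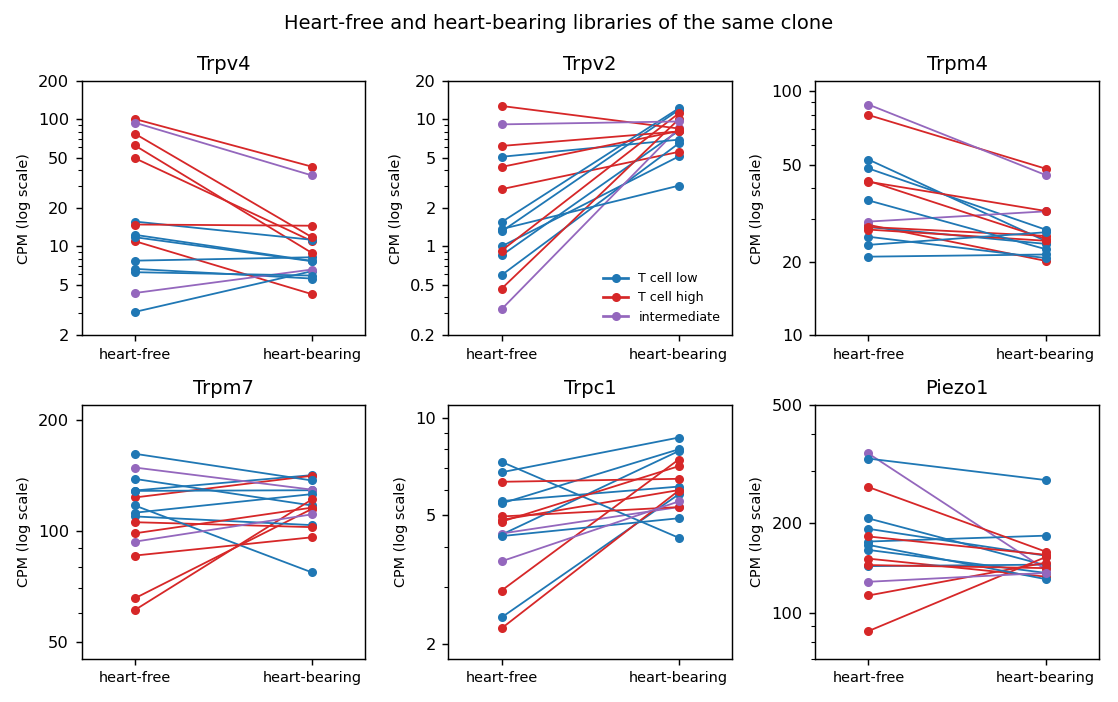
Levels of the 6 channels (CPM, log scale) in heart-free and heart-bearing libraries of the same clone, as means over libraries, with 1 line per clone coloured by class. Trpv2 rises in 14 of 15 clones and Trpv4 falls in 12 of 15.

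Lists of related genes gave no call between T cell high and low clones. The fit over all libraries was used, in which 0% of all genes were called. Of 23 other TRP genes, 16 were tested, with a median log2 difference of 0.09 beside -0.01 over all genes. The most expressed were Pkd2, a polycystin channel (-0.13 ± 0.16, SE), the lysosomal channel Mcoln1 (-0.11 ± 0.10) and the magnesium channel Trpm6 (0.31 ± 0.48). Other force-gated or volume-gated channels, 14 of 16 tested, had a median of -0.04, with Tmem63b at -0.00 ± 0.12 and Pkd1 at -0.10 ± 0.14. Piezo2, the touch-sensing relative of Piezo1, ranged from 0.945 to 430 CPM over heart-free libraries and differed by -0.26 ± 0.79 between classes.

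Partners of Trpv4 and Piezo1 gave no call in this contrast either. All 15 genes for partners and regulators of Trpv4 were tested, with a median of 0.05, the highest expressed being the kinase Wnk1 (-0.28 ± 0.15, SE) and the endocytic adaptor Pacsin2 (-0.10 ± 0.12). Piezo1 modulators had a median of 0.22 over 6 of 7, led by Ctnnb1, which encodes beta-catenin (0.32 ± 0.11), and Cdh1, which encodes E-cadherin (-0.01 ± 0.18). Tmem150c, named here after its values were seen, had the largest difference in that list at 2.35 ± 0.69 (edgeR, adjusted p = 0.320). Medians were -0.07 for 12 store-operated entry and store genes (Itpr3 -0.10 ± 0.11, Atp2b1 0.26 ± 0.17) and -0.14 for 14 calcium effectors (Calm2 -0.25 ± 0.18). They were 0.02 for 5 calcium-activated channels (Ano1 -0.20 ± 0.20, Ano6 -0.06 ± 0.17) and -0.02 for 10 magnesium transport genes (Magt1 -0.10 ± 0.11, Cnnm4 -0.05 ± 0.17). In heart-free libraries alone, again with none called, the median was 0.63 for Piezo1 modulators, 0.01 for calcium effectors, 0.20 for calcium-activated channels and 0.16 for magnesium transport genes, and between -0.07 and 0.07 for the other 4 lists.

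Between kinds of library, many genes of these lists passed (edgeR, adjusted p under 0.05), beside the 59.2% of all genes called. Among other TRP genes, 5 rose and 2 fell of 17 tested. Those that rose included Trpc6 (log2 4.42), Trpm2 (2.10) and Pkd2l1 (3.81), and Trpv3 (-1.27) and Trpm6 (-0.73) fell. Trpc4, which also rose, was at 0 in every heart-free library, so no fold is given. Fitted values of other genes close to 0 in heart-free libraries, such as Trpc6, Pkd2l1 and Aqp4, depend on the prior count and are no bound. Of other force-gated or volume-gated channels, the stretch-sensitive potassium channel Kcnk2 (1.34) and Pkd1 (0.42) rose and Asic1 (-0.63) fell, of 14. Among Trpv4 partners, the water channel Aqp4 (5.75), caveolin Cav1 (1.34) and Akap5 (1.45) rose, and Wnk4 (-1.0), Pla2g4a (-0.59), Src (-0.21) and Os9 (-0.18) fell, of 15. Piezo1 modulators gave the calcium pump Atp2a2 (0.44) as higher and Ctnnb1 (-0.68) and Cdh1 (-0.52) as lower, of 6.

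The calcium and magnesium lists held more genes that fell than rose in heart-bearing libraries. Of all genes tested, 31.8% were called higher and 27.3% lower. The store list, with 3 higher and 4 lower of 12, was near those shares. No excess in a list was tested. Store-operated entry and store genes gave Orai1 (0.61), Stim1 (0.40) and Atp2b4 (1.49) as higher and Atp2a3 (-1.08), Atp2b1 (-0.88), Itpr3 (-0.28) and Atp2c1 (-0.22) as lower, of 12. Of 14 calcium effectors, 1 rose, Nfatc4 (1.25), and 6 fell, among them Calm3 (-0.83), Camkk2 (-0.49), Ppp3ca (-0.38), Ppp3cb (-0.28) and Calm2 (-0.28). Calcium-activated channels gave Kcnma1 (4.10) as higher and Ano1 (-0.88), Kcnn4 (-0.84) and Ano6 (-0.41) as lower, of 5. All 10 magnesium transport genes passed, with Slc41a2 (1.46) and Slc41a3 (0.76) higher. Those that fell were Cnnm2 (-1.17), Cnnm4 (-0.89), Trpm6, which is also a TRP gene (-0.73), Magt1 (-0.54), Nipa1 (-0.46), Cnnm3 (-0.27), Nipa2 (-0.26) and Slc41a1 (-0.23).

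The genes whose level was most like that of Trpv4 over the 17 heart-free clones, among 10526 genes, were Grcc10 and Fut9 (Pearson's r = 0.906 each), Ucp2 (0.888), Asz1 (0.883), Cftr (0.879), Shf (0.866), Grasp (0.865) and App (0.864). Cftr encodes the chloride channel of duct epithelium and Ucp2 a mitochondrial carrier. Asz1, a germ cell gene, held 56.1 CPM in yfp_7160c2, 47.0 in yfp_6555c3 and 25.1 in yfp_6499c4 in heart-free libraries. It was 0.241 CPM in yfp_2838c3 and 2.53 in yfp_6556c4, also T cell high, within the T cell low range of at most 3.49 CPM. Among the 12 clones below the Trpv4 gap alone, rho with Trpv4 was 0.720 for Shf, 0.678 for Grasp, 0.594 for Cftr and 0.559 for Ucp2, but 0.294 for App and 0.141 for Fut9. The Trpv4 order of those clones did not exceed the spread within a clone, so these rho values are only a description. Over all 39 libraries, r with Trpv4 was 0.835 for Cftr, 0.834 for Ucp2, 0.838 for App and 0.554 for Grcc10. For Piezo1 they were Lin54 (0.898), Wsb2 (0.873), Acot7, Slc30a4, Snx9 and Lsm14b (0.870 each), Dagla (0.867) and Inpp4b (0.863). Over all libraries, r with Piezo1 was 0.829 for Dagla, 0.823 for Lsm14b and 0.377 for Lin54. By Spearman's rho, over the 17 clones, 2 of the 8 genes were still among the 8 nearest for Trpv4 and 2 for Piezo1.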

How the data were processed

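Levels of 6 channel genes were read in 39 libraries of sorted mouse tumour cells. The deposited table held raw counts per gene as whole numbers. The submitters' processing notes name STAR, featureCounts and the mm10 build, with no version; annotation and strand setting were not stated there. CPM are counts divided by the library total times its TMM factor over the 39 libraries, and clone values are counts summed over the libraries of a clone on the same scale. Log2 differences, standard errors and adjusted p-values come from edgeR (version 4.0.16, R 4.3.3) and its quasi-likelihood F-test on clone sums, after filterByExpr and TMM scaling, with Benjamini-Hochberg adjustment over all genes tested and 0.05 as the threshold. Heart-bearing and heart-free libraries were compared per library with the clone as a block. No p is given for the members between T cell high and low clones, between kinds of library within a class, or for the class difference.

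The 6 members and all gene lists were chosen with earlier results of these data known. The text names the members, list genes that passed a test or otherwise the most expressed, and the 8 genes nearest to Trpv4 and to Piezo1 by Pearson's r of log2 CPM with a prior count of 2, among genes averaging 5 CPM or more, passing over Riken, Gm and pseudogene symbols. Some list genes are not reported here. Likeness carries no p. Of the symbols in the lists, Saraf and Adgre1 had no row. Alternatives were DESeq2 1.42.0, limma 3.58.1, other filters and scaling, each clone left out, libraries as replicates and splits by library kind or class, of which those by kind for the intermediate clones and by class were chosen after seeing the data. Intervals and permutation tests are two-sided. GENCODE M21 (GRCm38) gave the positions and holds 37693 of the table's gene identifiers. Library totals ranged from 7638130 to 103794674 counts and the lowest count of a member was 12, for Trpv2.

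The fits of 5 comparisons, not those of heart-bearing libraries alone or within parent lines, were checked on simulated counts with 200 altered genes. The altered genes averaged at least 5 CPM, so recovery of genes at lower levels was not checked. Each gene was simulated from 1 mean level over all clones, so recovery in the deposited counts may differ. In those counts edgeR called 0% of genes for high against low clones. Unaltered genes made up 6.1% of the calls for high against low clones, 5.6% in heart-free libraries and 2.1% to 3.2% in the rest. For high against low clones (18319 genes), recovery was 79% at a log2 change of 1 and 90% at a log2 change of 2. At the same changes it was 45% and 90% in heart-free libraries (15448 genes), 26.3% and 82% for intermediate against low clones (19731), 85.9% and 99% between kinds of library (18860) and 56.7% and 84.8% for the class difference (18673).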

Additional observations from a re-analysis of the deposited data

Results flagged for a closer look

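In 36 groups of clones checked, 6 had a clone whose gap to the nearest other clone was large against the range of the group. The groups overlap, because each gene and class enters over all, heart-free and heart-bearing libraries. All 6 flags were for the highest clone, on CPM without a log scale. No rate expected by chance is therefore given. Trpv4 in heart-bearing libraries of T cell high clones was highest in yfp_7160c2 at 42.4 CPM. Trpm4 in T cell high clones was highest in the same clone, at 79.8 CPM in the heart-free and 60.1 CPM in all libraries. Trpm4 in heart-bearing libraries of T cell low clones was highest in yfp_6422c1 at 36.7 CPM, a clone without a heart-free library. Piezo1 in those libraries was highest in yfp_6694c2 at 279 CPM. Trpv2 in heart-free libraries of T cell low clones was highest in yfp_6499c3 at 5.07 CPM, where macrophage markers summed to 1406 CPM, the highest of the T cell low heart-free libraries.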

How the results depend on the processing

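Counts of genes called moved with the tool, the replicate unit and the clones included. DESeq2 called 154 genes between T cell high and low clones, 380 in heart-free libraries, 20 between intermediate and low clones, 209 for the class difference and 350 within parent lines, where edgeR called 0, 0, 1, 0 and 0. With each library as a replicate 9 genes were called between high and low clones, and 163 with heart-bearing as a covariate besides. Using the number that ends the titles as a replicate block over libraries gave 13, and the labels do not say that this number marks a shared batch. With each clone left out, the calls ranged from 0 to 16 between high and low clones, from 0 to 37 in heart-free libraries and from 0 to 9 for the class difference, the highest each time without yfp_2838c3. Between intermediate and low clones they ranged from 0 to 99, the highest without yfp_6422c5 and 6 without yfp_7160c2, and were 0 in heart-free libraries alone. Between kinds of library, 7514 genes were called in T cell high clones alone, in which fewer clones were tested, and between 10803 and 11661 with each clone left out. By Spearman's rho, 2 of 8 genes nearest to Trpv4 and 2 of 8 nearest to Piezo1 were kept, and 8 of 8 for each with a prior count of 0.5.

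Directions changed for members whose difference was not called. Against low clones, Trpm7 in intermediate clones was at -0.0017 with upper quartile scaling and -0.020 in heart-free libraries. Against high clones, in heart-free libraries, Trpv4 was at -0.062 and Trpv2 at 0.069. Between kinds of library, Piezo1 was at 0.054 in T cell high and Trpm7 at -0.13 in T cell low clones alone. With each clone left out, log2 differences of intermediate against low clones ranged from -0.51 to 3.11 for Trpv4, from -0.42 to 1.12 for Trpv2, from -0.27 to 0.27 for Trpm7 and from -0.52 to 0.60 for Piezo1. Against high clones they ranged from -2.58 to 1.04 for Trpv4, from -0.99 to 0.55 for Trpv2, from -0.11 to 0.96 for Trpm4 and from -0.19 to 0.94 for Piezo1. The class difference ranged from -0.16 to 0.11 for Trpm4 and from -0.010 to 0.44 for Trpc1. The cause of these changes was not tested.

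The 4 members called between kinds of library remained called with each clone left out (edgeR, adjusted p at most 0.0450). That largest value was for Trpv4, whose test is not free of the choice of the set. In the main fit 59.2% of all genes were called. Trpv2 at 12 to 674 reads and Trpc1 at 29 to 849 reads per library have the widest counting error. Clones of one parent line were taken as separate replicates.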
